A study of Mus musculus with 12 samples.

Results

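The interaction of LL37 and rapamycin (RAPA) in mouse skin was measured as a difference of differences, namely the response to LL37 without RAPA (LL37 against control) minus the response to LL37 with RAPA (LL37+RAPA against control+RAPA). All 12 libraries of the series entered this comparison, 3 from each of 4 groups, and 17993 of the 52636 genes in the count table passed the filter on low counts. A positive value, given below as a log2 interaction, means that the response to LL37 was higher (more positive, or less negative) without RAPA than with it, and a negative value means the reverse.

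The mice were female BALB/c, 8 weeks old when the model was made. LL37 mice received 40 μl of the peptide at 320 μM into the dermis of the back, 2 times a day for 2 days, and control mice received the vehicle in the same way. LL37+RAPA and control+RAPA mice carried the same injections and were also given RAPA, for which the methods state 4 mg/kg per day by the intraperitoneal route in this strain without naming the route of the sequenced animals. The sequenced tissue was whole skin, with 3 independent samples in a group, so that epidermis, dermis, fat, muscle and infiltrating cells were read together. In such bulk tissue, fewer cells of a type and less RNA per cell cannot be told apart.

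LL37 is the active peptide cut from human cathelicidin by kallikrein proteases, and its injection is used as a model of the skin disease rosacea. RAPA inhibits mTORC1, the kinase complex that couples nutrient and growth signals to protein synthesis, glycolysis and lipid synthesis, in part through hypoxia-inducible factor and sterol regulatory factors. The interaction asks which genes answer the peptide differently once this complex is inhibited, apart from any change that RAPA makes in skin without LL37.

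Between 15734559 and 23271784 counts lay on genes in a library, and 3 counts, taken here as the floor of detection, correspond to between 0.123 and 0.184 CPM (counts scaled to library size by TMM factors). These limits cover counting error only. Replicates differed beyond sampling noise in every group (mean chi-square per gene from 13.7 to 69.7, where the highest value belonged to LL37 replicates 2 and 3). LL37 replicate 3 stood apart from its group. On the first principal component, which held 68.3% of the variance, it scored 64.4, between the other LL37 libraries (133 and 129) and the LL37+RAPA libraries (0.527 to 29.8).

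The response to LL37 was smaller with RAPA than without it for most genes that responded. LL37 changed 3516 genes without RAPA (19.5% of tested genes, adjusted p under 0.05 and absolute log2 difference above 1, edgeR) and 1510 genes with RAPA (8.39%). These responses share no library. They had 1281 genes in common, which is 36.4% of the genes called without RAPA and 84.8% of those called with it, and 1274 of the 1281 moved in the same direction. Of the genes called without RAPA, 90.3% had the same sign with RAPA, and the median absolute log2 difference was 1.74 without RAPA and 0.90 with it. Among genes called with RAPA, where the choice of genes favours the other side, 66.5% still had the larger difference without RAPA (median absolute log2 difference 2.14 without and 1.80 with RAPA).

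The interaction itself was called in 429 genes (2.38% of tested genes, same rule), of which 117 were positive (0.65%) and 312 negative (1.73%). Before adjustment, p was under 0.05 for 1765 positive genes (9.81%) and 2284 negative ones (12.7%). The smallest adjusted p was 0.0142 (edgeR), so that the called genes lie in a narrow range below the limit. The positive genes had a median log2 response to LL37 of 1.56 without RAPA and -0.12 with RAPA. For the negative genes the medians were -2.53 and -0.58. RAPA alone moved both sets little, with a median log2 difference of 0.20 (positive genes) and -0.12 (negative genes) between control+RAPA and control, whereas LL37+RAPA and LL37 differed by -1.38 and 1.72. In 45 positive and 215 negative genes the response kept its direction and was smaller with RAPA, in 63 and 82 it had the opposite sign and a smaller size, and in 9 and 13 the opposite sign and a larger size. The response was larger with RAPA and in the same direction in 0 positive and 2 negative genes, Klhl6 and Col5a3. On the linear CPM scale the difference of differences kept its sign in all 117 positive genes and in 291 of the 312 negative ones.

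**Figure D1:**
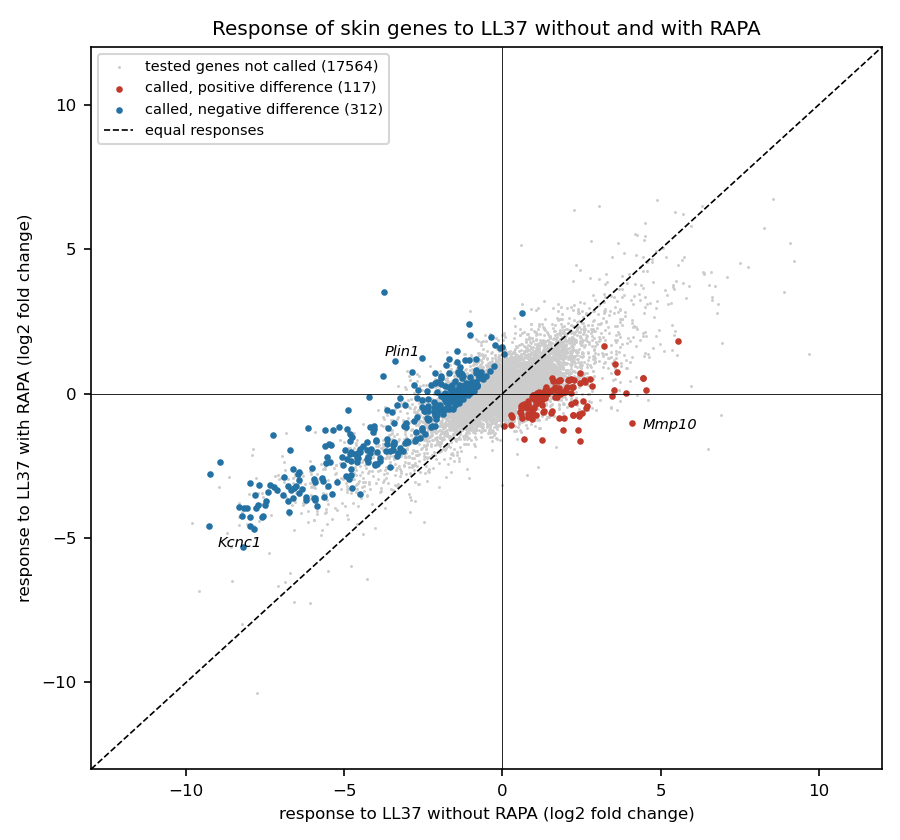
Log2 response to LL37 without RAPA (x axis) and with RAPA (y axis) for each tested gene, with the 117 positive and 312 negative interaction genes in red and blue and a dashed line where both responses are equal. Most called genes lie between the dashed line and the horizontal axis or close to that axis, which is where the response with RAPA is near 0.

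Genes of the hypoxia response and glycolysis made up the clearest group that responded more to LL37 without RAPA. All 39 tested members of this list had a positive interaction. Of these, 32 had an unadjusted p under 0.05, against 9.81% of all tested genes, and 11 were called, against 0.65%. The median log2 interaction was 0.79 over the list and -0.01 over all tested genes. Without RAPA the median log2 response was 0.96, and with RAPA it was 0.04. After LL37, 19 members were called higher without RAPA and 2 with RAPA, against 1570 and 733 of all 17993 tested genes. The summed CPM of the list, here and for the lists below scaled to total counts without TMM factors, did not follow this median. It ranged from 11420 to 13800 in control, from 10130 to 12730 in LL37, from 10500 to 14260 in control+RAPA and from 6163 to 6528 in LL37+RAPA.

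Egln3 (ENSMUSG00000035105, chr12:54178981-54203860) encodes a prolyl hydroxylase that marks hypoxia-inducible factor for degradation and is itself induced by it. Its CPM was 81.2, 78.2 and 119.7 in the control libraries, 388, 297 and 357 in LL37, 93.3, 94.3 and 98.9 in control+RAPA and 89.9, 108 and 97.3 in LL37+RAPA. All 3 LL37 libraries lay above the other 9, which overlapped each other. The log2 interaction was 1.86 (standard error 0.22, adjusted p = 0.0142, edgeR). Ndrg1, a stress-response gene induced by low oxygen, had 104.5, 93.0 and 115.5 CPM in control, 439, 346 and 305 in LL37, 115, 155 and 131.5 in control+RAPA and 136, 172 and 148 in LL37+RAPA, with a log2 interaction of 1.62 (standard error 0.22, adjusted p = 0.0171, edgeR). Exons of Ndrg1 overlap those of Gm17035 and Gm2895 on the other strand. Ero1l, which drives disulfide bond formation in the endoplasmic reticulum, held 16.6, 17.7 and 22.2 CPM in control and 125.5, 104 and 77.8 in LL37, but 15.4, 16.8 and 15.8 in control+RAPA and 21.3, 30.05 and 27.6 in LL37+RAPA. In Ero1l a response remained with RAPA (log2 0.72, adjusted p = 0.0179, edgeR), smaller than the 2.44 without it, and the log2 interaction was 1.73 (standard error 0.26, adjusted p = 0.0193, edgeR).

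The other 8 called members, named here because they complete the list, were Slc16a3 (log2 interaction 2.81), Adm (2.20), Vegfa (1.81), Slc2a1 (1.80), Car9 (1.57), Pgk1 (1.18), Bnip3 (1.18) and Pfkl (1.02). Slc16a3 exports lactate from glycolytic cells. It held 107, 68.0 and 112 CPM in control, 445, 501 and 172 in LL37, 103.5, 62.1 and 77.4 in control+RAPA and 31.2, 54.5 and 49.1 in LL37+RAPA. LL37 replicate 3 was the lowest library of its group, although it still exceeded every library of the other groups. Pgk1, a glycolytic enzyme, held 359.5, 305 and 399 CPM in control and 562, 557 and 445 in LL37, and with RAPA 377, 278 and 309 without the peptide and 192, 234 and 201 with it. Here the response with RAPA was opposite in sign and of similar size (log2 0.56 without and -0.62 with RAPA). Bnip3, a mitophagy receptor, had a log2 response of 0.06 without RAPA and -1.12 with it, and Vegfa, the main angiogenic factor, stood at 0.92 and -0.89. Car9, a carbonic anhydrase, kept part of its response (3.22 and 1.65).

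Promoter windows are shown for called members of this list because hypoxia-inducible factor is known to bind the core motif ACGTG. The windows were taken from RefSeq (GRCm38.p6) as the 250 bases before the start of a gene, a window was found for 297 of the 429 genes, and both strands were searched. The motif was present in 6 of the 9 called list members with a window and in 44.1% of the 34 list members with a window, against 20.5% of the 12459 windows of tested genes. Over the whole called sets the shares were 19.3% of 83 positive and 19.2% of 214 negative genes, close to the share in all windows. A match is a description of letters and no evidence of binding, and the count includes each ACGTG inside the longer letters CACGTG. In the 4 stretches below, each cut where the first annotated exon begins, capitals mark ACGTG or its reverse complement CACGT. Egln3 (chr12:54203875-54204124, minus strand) had 1 match that begins 229 bases before the start, Pgk1 (chrX:106186850-106187099, plus strand) had 2 at 150 and 131 bases, Bnip3 (chr7:138909520-138909756, minus strand) had 2 that overlap at 108 and 107 bases, and Slc16a3 (chr11:120948817-120949052, plus strand) had 1 at 27 bases in the stretch shown.
Egln3: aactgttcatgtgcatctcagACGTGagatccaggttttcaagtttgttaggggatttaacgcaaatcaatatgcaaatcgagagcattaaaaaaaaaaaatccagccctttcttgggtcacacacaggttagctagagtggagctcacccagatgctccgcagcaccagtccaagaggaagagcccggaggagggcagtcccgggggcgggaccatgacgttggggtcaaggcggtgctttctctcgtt
Pgk1: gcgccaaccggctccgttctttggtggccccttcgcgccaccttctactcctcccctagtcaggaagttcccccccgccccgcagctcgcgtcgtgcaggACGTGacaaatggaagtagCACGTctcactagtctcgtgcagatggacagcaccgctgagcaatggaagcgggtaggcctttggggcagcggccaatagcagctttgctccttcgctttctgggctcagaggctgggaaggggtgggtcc
Bnip3: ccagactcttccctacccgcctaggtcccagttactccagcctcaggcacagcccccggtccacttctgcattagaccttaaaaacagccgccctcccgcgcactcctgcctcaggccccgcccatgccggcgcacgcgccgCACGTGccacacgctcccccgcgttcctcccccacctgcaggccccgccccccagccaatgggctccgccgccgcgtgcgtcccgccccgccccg
Slc16a3: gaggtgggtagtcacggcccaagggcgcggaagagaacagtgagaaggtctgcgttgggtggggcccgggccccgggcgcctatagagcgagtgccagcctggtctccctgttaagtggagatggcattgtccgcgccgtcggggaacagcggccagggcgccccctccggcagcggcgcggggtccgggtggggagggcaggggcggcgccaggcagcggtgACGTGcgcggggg

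Keratinocyte genes formed the next positive group. In the list of stressed epidermis (genes of wounded or inflamed epidermis), 39 of 41 tested members had a positive interaction with a median of 1.58, the highest of the 37 lists. Of these, 4 were called, against 0.65% of all tested genes called positive. The median log2 response was 2.02 without RAPA and 0.29 with RAPA. After LL37, 24 members were called higher without RAPA and 4 with RAPA, against 1570 and 733 of all 17993 tested genes. The summed CPM of the list ranged from 1796 to 3388 in control and from 8758 to 13530 in LL37, but from 2615 to 2965 in control+RAPA and from 2980 to 4324 in LL37+RAPA. The LL37 libraries lay above those of all other groups. The lowest LL37+RAPA sum (2980) was next to the highest control+RAPA sum (2965). TMM factors, which do not enter these sums, were 1.05 to 1.08 in LL37+RAPA and 0.896 to 0.956 in control+RAPA. Any separation of these groups therefore depends on the scaling. Sprr1a, a precursor of the cornified envelope, held 20.97, 31.9 and 48.3 CPM in control, 136, 85.9 and 179 in LL37, 43.6, 55.9 and 41.7 in control+RAPA and 49.9, 42.4 and 55.8 in LL37+RAPA. Its log2 interaction was 1.92 (standard error 0.42, adjusted p = 0.0371, edgeR). Defb14, an antimicrobial beta-defensin, held 2.75, 3.79 and 3.16 CPM in control, 7.02, 4.72 and 6.45 in LL37, 3.14, 4.54 and 2.82 in control+RAPA and 2.51, 1.43 and 2.12 in LL37+RAPA (log2 interaction 1.71, standard error 0.38, adjusted p = 0.0378, edgeR). Krt17 (1.08), a keratin of activated keratinocytes, and Tgm1 (1.00), the crosslinking enzyme of the cornified envelope, were the other called members.

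In the list of resting and cornifying epidermis 44 of 50 members were positive (median 0.50), with 5 called, against 0.65% of all tested genes called positive. The responses were small in both arms, with medians of 0.07 without RAPA and -0.53 with RAPA, so that the median lay below 0 with RAPA and near 0 without it. Itga6, the integrin that anchors basal keratinocytes, held 116, 152 and 137 CPM in control, 432, 383 and 246 in LL37, 154.5, 166 and 149 in control+RAPA and 171, 188 and 188 in LL37+RAPA (log2 interaction 1.17, standard error 0.25, adjusted p = 0.0337, edgeR). Hrnr, a filaggrin-like protein of the granular layer, had a log2 response of 0.77 without RAPA and -0.49 with RAPA (log2 interaction 1.26). Lce1g (1.61) and Lce1e (1.01), members of a family of similar late envelope genes whose reads may be shared, and the protease gene Klk7 were also called.

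Kallikreins include proteases that shed corneocytes and cut cathelicidin. In the list of cathelicidin and kallikreins 14 of 16 members were positive (median 0.58) and 4 were called, against 0.65% of all tested genes called positive. The called members were Klk6 (3.41), Klk13 (2.96), Klk9 (1.49) and Klk7 (1.19). Klk9 held 44.1, 45.7 and 53.8 CPM in control, 97.9, 54.5 and 96.7 in LL37, 62.5, 55.2 and 52.7 in control+RAPA and 36.96, 34.8 and 33.8 in LL37+RAPA. Its response was 0.80 without RAPA (adjusted p = 0.00512, edgeR) and -0.69 with RAPA (adjusted p = 0.0234, edgeR). Klk7 held 128, 177 and 164 CPM in control, 282, 183 and 346 in LL37, 184, 217 and 183 in control+RAPA and 148, 133 and 163 in LL37+RAPA, so that LL37 replicate 2 lay close to control and the log2 interaction had an adjusted p of 0.0448 (edgeR). Camp, the mouse cathelicidin gene, was too low to assess. Its counts were 8, 11 and 0 in control, 14, 9 and 0 in LL37, 3, 3 and 1 in control+RAPA and 6, 1 and 1 in LL37+RAPA.

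Further genes with small p were positive as well. Aqp3, the water and glycerol channel of basal keratinocytes, held 139, 178 and 179 CPM in control, 862, 648 and 479.6 in LL37, 192, 189.7 and 146 in control+RAPA and 180.3, 193 and 220.03 in LL37+RAPA (log2 interaction 1.84, standard error 0.28, adjusted p = 0.0193, edgeR). Bnc1, a transcription factor of basal keratinocytes whose exons overlap 4833418N17Rik, had a log2 response of 2.23 without RAPA and 0.23 with RAPA (log2 interaction 1.99). Kctd11, an adaptor of a ubiquitin ligase, had a log2 interaction of 1.52, with responses of 1.36 and -0.16. Cemip, which takes part in hyaluronan breakdown, held 1.54 to 3.16 CPM in control, 7.44 to 12.1 in LL37, 4.60 to 5.98 in control+RAPA and 3.84 to 4.42 in LL37+RAPA, with a log2 interaction of 2.52 (adjusted p = 0.0193, edgeR). Gm11110, a long noncoding RNA whose exons overlap Tnfsf9, had a log2 interaction of 2.97 at a low level (0.324 to 2.07 CPM). The hair follicle list gave 1 positive call, Tchh (1.24), which encodes trichohyalin of the inner root sheath, and 1 negative call, Cd34 (-1.04). These are 1 each of 25 tested members, against 0.65% and 1.73% of all tested genes.

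Mmp10, a matrix metalloproteinase of migrating keratinocytes, had the largest positive log2 interaction among the genes named here (5.10, standard error 0.77, adjusted p = 0.0193, edgeR), and its size depends on few counts. The libraries held 2, 4 and 9 counts in control, 61, 69 and 132 in LL37, 4, 5 and 3 in control+RAPA and 2, 3 and 2 in LL37+RAPA, so that the last group was at the floor. Summed over libraries and scaled by their size, LL37 exceeded LL37+RAPA 45.3 times (exact 95% interval 21.7 to 114, counting error only). It was the 1 called gene of 21 in the list of matrix metalloproteinases and inhibitors, whose median was -0.34. Of all tested genes, 0.65% were called positive. Mmp10 and Sprr1a both carry the letters TGANTCA, the binding motif of AP-1, in the window before their start, and both stretches are shown with the motif in capitals. The motif, which reads alike on both strands, was found in 10 of the 31 windows of the stressed epidermis list, in 8.43% of positive and 6.54% of negative interaction genes and in 5.04% of tested genes. Only 2 called members of that list had a window, 1 of them with the motif. The median share of G and C was 45.6% in the windows of the list and 59.2% in all windows, and the shares were not adjusted for it. Sprr1a (chr3:92485896-92486131, minus strand) had 2 matches that begin 146 and 116 bases before the start, and Mmp10 (chr9:7502092-7502341, plus strand) had 1 at 63 bases.
Sprr1a: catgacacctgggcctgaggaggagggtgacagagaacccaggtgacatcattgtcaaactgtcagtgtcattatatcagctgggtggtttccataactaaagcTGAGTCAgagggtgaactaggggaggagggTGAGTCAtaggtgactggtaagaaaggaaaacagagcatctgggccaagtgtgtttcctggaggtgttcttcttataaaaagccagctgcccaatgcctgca
Mmp10: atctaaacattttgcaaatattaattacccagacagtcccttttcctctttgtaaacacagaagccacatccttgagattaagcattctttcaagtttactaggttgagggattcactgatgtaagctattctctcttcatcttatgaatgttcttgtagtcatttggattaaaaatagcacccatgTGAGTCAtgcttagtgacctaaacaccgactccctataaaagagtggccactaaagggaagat

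Genes of signalling gave calls mostly in the positive direction. Of 43 cytokines, 36 were positive with a median of 0.89, and the called members were Il1f9, Il1a (1.93), Inhba (2.54) and, in the negative direction, Tgfb2 (-1.27). That is 3 positive calls and 1 negative call, against 0.65% and 1.73% of all tested genes. Il1f9 encodes interleukin-36 gamma, a keratinocyte alarmin. It held 44.4, 41.5 and 56.5 CPM in control, 132, 112 and 87.8 in LL37, 41.8, 49.6 and 54.9 in control+RAPA and 34.7, 41.0 and 47.2 in LL37+RAPA, and the LL37 libraries lay above all others (log2 interaction 1.47, adjusted p = 0.0223, edgeR). Tgfb2, a growth factor that restrains keratinocyte division, had a log2 response to LL37 of -1.79 without RAPA and -0.52 with RAPA. Of 29 immediate early genes 23 were positive (median 0.53), and 3 were called, against 0.65% of all tested genes called positive. The called members were Ier3, Ier5 and Dusp5. Ier3 held 25.2, 29.3 and 34.3 CPM in control and 191, 191 and 101 in LL37, and with RAPA 34.3, 44.8 and 40.9 without the peptide and 41.0, 52.8 and 59.7 with it (log2 interaction 2.09, standard error 0.33, adjusted p = 0.0198, edgeR). Dusp5, a phosphatase of the kinase ERK, had a log2 interaction of 1.41 (adjusted p = 0.0293, edgeR).

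The interactions of the inflammatory genes and lists in this paragraph did not pass the test, and several of the genes differed widely between replicates. Il1b held 288.6, 236.5 and 17.0 CPM in LL37, Cxcl2 405, 345 and 21.1, and Ccl3 78.3, 43.2 and 7.54, so that LL37 replicate 3 lay near the LL37+RAPA libraries, whose values were 2.56 to 16.6, 4.46 to 30.2 and 0.759 to 2.87. Their log2 interactions were 3.34, 3.29 and 2.57 with standard errors of 1.82, 1.88 and 1.54 and adjusted p of 0.304, 0.327 and 0.351 (edgeR). Tlr2, an innate immune receptor for microbial lipoproteins, held 8.09, 3.95 and 9.06 CPM in control, 79.9, 61.9 and 17.9 in LL37, 5.26, 3.90 and 3.86 in control+RAPA and 6.64, 16.9 and 11.2 in LL37+RAPA (log2 interaction 1.5004, adjusted p = 0.242, edgeR), and Tnf stood at 1.6014 (adjusted p = 0.264, edgeR). No member was called by edgeR among 35 neutrophil genes (median 0.59, responses 3.38 without and 2.23 with RAPA), 53 chemokines and receptors (0.13), 44 macrophage and monocyte genes (0.14), 40 subunits and regulators of NF-kB (0.45) or 53 interferon-stimulated genes (0.68). In that order, 23, 31, 24, 35 and 47 members had a positive interaction. After LL37, 32, 26, 21, 13 and 37 members were called higher without RAPA and 18, 18, 17, 2 and 6 with it. These compare with 1570 and 733 of all 17993 tested genes. Median responses without and with RAPA were 0.68 and 0.22 for the NF-kB list and 1.62 and 0.68 for the interferon list. At an unadjusted p under 0.05 these lists held 2, 6, 4, 10 and 14 positive and 0, 5, 3, 0 and 1 negative members, against 9.81% and 12.7% of all tested genes. The positive share was above that of all genes in the NF-kB and interferon lists, and near or below it in the others. DESeq2 called 2, 0, 4, 2 and 2 members of either sign. limma-voom with quality weights called 3, 2, 2, 5 and 6 positive and 0, 3, 1, 0 and 1 negative members. With single libraries left out, edgeR called at most 3, 5, 4, 7 and 7 members and at least 0 in each list. The list medians then ranged from 0.28 to 1.10, -0.01 to 0.27, -0.16 to 0.28, 0.34 to 0.66 and 0.34 to 0.95. The macrophage list had median responses of 0.99 without and 1.06 with RAPA, and the summed neutrophil list spread from 1516 to 5002 CPM within the LL37 group.

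Adipocyte genes fell after LL37 without RAPA, where 27 of 39 members were called lower, and 1 member was called lower with RAPA. Of all 17993 tested genes, 1946 were called lower without RAPA and 777 with RAPA. The median log2 response of the list was -1.49 without RAPA and 0.05 with RAPA. The interaction was negative in 37 of 39 with a median of -1.57, and 16 were called, all negative, against 1.73% of all genes called negative. The summed CPM of the list ranged from 7756 to 9521 in control, from 2375 to 3971 in LL37, from 7469 to 11090 in control+RAPA and from 8768 to 9099 in LL37+RAPA. Ces1d, a carboxylesterase of fat cells that hydrolyses triglyceride, had the smallest p of all genes. It held 109, 122 and 111 CPM in control, 40.9, 34.5 and 30.4 in LL37, 107, 138 and 116 in control+RAPA and 117, 109.55 and 111 in LL37+RAPA. The LL37 libraries lay far below the other 9, which overlapped, and the log2 interaction was -1.60 (standard error 0.17, adjusted p = 0.0142, edgeR). Adig, a small protein of lipid droplets, held 19.0, 20.05 and 19.0 CPM in control, 9.69, 6.62 and 8.71 in LL37, 20.5, 20.4 and 21.1 in control+RAPA and 23.2, 20.8 and 20.1 in LL37+RAPA (log2 interaction -1.26, standard error 0.19, adjusted p = 0.0193, edgeR).

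Pparg, the master transcription factor of fat cells, had responses of opposite sign. It held 26.8, 30.4 and 23.3 CPM in control, 18.2, 11.9 and 17.5 in LL37, 24.995, 38.2 and 27.1 in control+RAPA and 47.7, 44.5 and 42.6 in LL37+RAPA, which is a log2 response of -0.75 without RAPA (adjusted p = 0.00741, edgeR) and 0.58 with RAPA (adjusted p = 0.0488, edgeR). The hormone Adipoq (-2.48), the lipid droplet coats Plin1 (-2.86) and Plin4 (-1.54), the lipases Lipe (-1.50) and Lpl (-1.55), the fatty acid carrier Cd36 (-1.57) and Retn (-1.97), Gpd1 (-1.41), Lgals12 (-1.54), Trarg1 (-2.17) and Sncg (-1.83) were called too. Car3 (-2.95) and Slc2a4 (-2.02) complete the 16 with Ces1d, Adig and Pparg, and both are also expressed in muscle. In Slc2a4, the insulin-regulated glucose transporter, LL37 lowered the level with RAPA as well (log2 -4.26 without and -2.24 with RAPA). The sebaceous gland list gave 3 negative calls of 19, Scd3 (-1.57) and Pparg among them, with a median of -0.70. Of all tested genes, 1.73% were called negative. Scd3, a desaturase with close relatives among whose transcripts reads may be shared, held 308, 504 and 493 CPM in control, 208, 119 and 188 in LL37, 383, 342 and 297 in control+RAPA and 461, 341 and 392.4 in LL37+RAPA. The 40 genes of sterol and fatty acid synthesis, which are controlled by mTORC1 in many cells, had a median of -0.21 and no call. At an unadjusted p under 0.05 there were 2 positive and 7 negative members, against 9.81% and 12.7% of all tested genes.

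Skeletal muscle genes had the largest negative values. Of 78 contractile and metabolic genes, 74 were called lower after LL37 without RAPA and 59 with RAPA, against 1946 and 777 of all 17993 tested genes. The median log2 response was -6.38 without RAPA and -3.07 with RAPA. The interaction was negative in 76 of 78 (median -3.26), and 22 were called, all negative, against 1.73% of all tested genes called negative. The share of all counts on the muscle lists was 5.98 to 8.35% in control and 6.20 to 9.68% in control+RAPA, and it was 0.154 to 0.341% in LL37 and 0.776 to 1.44% in LL37+RAPA. No library of one LL37 group overlapped the other. This share moved with every muscle gene named here, and its part in the calls of other genes was not tested beyond scaling the libraries without the muscle lists, which called 417 genes, 412 of them among the 429.

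Rpl3l, a ribosomal protein made in muscle in place of Rpl3, held 169, 149 and 157 CPM in control, 0.163, 0.368 and 1.13 in LL37, 195, 113 and 155 in control+RAPA and 14.4, 6.14 and 9.56 in LL37+RAPA. Its response was -8.07 without RAPA and -3.95 with it (log2 interaction -4.12, standard error 0.58, adjusted p = 0.0171, edgeR). Scn4b, a subunit of muscle sodium channels, held 130, 97.7 and 96.2 CPM in control, 0.109, 0.552 and 0.707 in LL37, 112, 75.1 and 82.4 in control+RAPA and 5.08, 2.05 and 3.43 in LL37+RAPA (log2 interaction -3.17, adjusted p = 0.0233, edgeR). The remaining called members had log2 interactions from -4.31 (Myot) to -1.01 (Dmd), with the oxygen carrier Mb at -3.99 and the Z-disc proteins Myoz1 and Myoz2 at -3.73 and -3.67. On the linear CPM scale the difference of differences turned positive in 6 of the 22, with Mylk2, Myoz1, Myot, Des and Sgca among them. Myot and Myoz2 each held 0 to 0.0613 CPM in LL37 replicates 1 and 2, below the floor of 3 counts. LL37 replicate 3 held 3.96 CPM of Myot and 1.32 CPM of Myoz2, so their group means rest mostly on this library. With libraries left out, their log2 interactions ranged from -9.67 to -3.74 and from -7.53 to -3.14. In Mb the LL37 libraries held 0.272, 0.245 and 4.85 CPM, of which replicate 3 was by far the highest, and the standard error was 0.90. Apol6 had a log2 interaction of -2.80 (adjusted p = 0.0157, edgeR), but its exons overlap those of Mb on the other strand and the library protocol does not state that strand was kept, so reads of the shared exons cannot be told apart. Log2 responses without and with RAPA were -2.68 and 0.13 for Apol6 and -8.23 and -4.24 for Mb. The part of Mb reads in the Apol6 counts was not tested. In the list of muscle precursors and denervation 32 of 37 were negative (median -1.35), and 3 were called, against 1.73% of all tested genes called negative. The called members were Mef2c (-2.39), Ankrd2 (-4.30) and Csrp3 (-4.96). Ankrd2, a stretch-responsive protein, held 89.2, 64.2 and 79.2 CPM in LL37+RAPA against 153, 95.7 and 98.0 in control+RAPA and 0.544, 0.674 and 11.2 in LL37.

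Other negative genes with small p lay outside these lists. Coq8a, needed to make coenzyme Q in mitochondria, held 406, 298 and 285 CPM in control, 24.3, 30.1 and 29.3 in LL37, 324, 320.5 and 269.9 in control+RAPA and 90.002, 69.8 and 71.6 in LL37+RAPA (log2 interaction -1.58, standard error 0.22, adjusted p = 0.0171, edgeR). Exons of Coq8a overlap Cdc42bpa. Kcnc1, a potassium channel, went from 88.7, 52.3 and 70.4 CPM in control to 0, 4 and 2 counts in the LL37 libraries, and from 58.4, 42.5 and 61.5 CPM in control+RAPA to 3.13, 1.92 and 1.67 CPM in LL37+RAPA. LL37+RAPA exceeded LL37 20.7 times (exact 95% interval 9.27 to 57.2, counting error only), and the fitted log2 interaction was -4.68. A second potassium channel gene, Kcnq5, stood at -3.74. Log2 responses without and with RAPA were -3.56 and -1.98 for Coq8a, -9.27 and -4.60 for Kcnc1 and -5.47 and -1.73 for Kcnq5. The muscle list had medians of -6.38 and -3.07. Whether the changes of these 3 genes follow the muscle share was not tested. Gm4265, a long noncoding RNA on chromosome 7 from 129962165 to 129978669, was 1 of the 2 genes called whichever library was left out, the other being Ces1d. It held 22, 29 and 27 counts in control, 2, 1 and 4 in LL37, 18, 25 and 19 in control+RAPA and 75, 44 and 42 in LL37+RAPA. LL37 thus lowered it without RAPA (log2 -3.39) and raised it with RAPA (1.12, adjusted p = 0.0305, edgeR), with a log2 interaction of -4.52 (standard error 0.56). Lctl (-3.60), a lactase-like protein, was also at or below 2.82 CPM in every library, and Slc25a23 (-1.23), a mitochondrial carrier, and 5730409E04Rik (-1.10) had log2 responses of -1.71 and -0.89 without RAPA. Exons of Lctl, Slc25a23, Kcnq5, Tgfb2, Col15a1, Dusp5, Cd34 and Il1b also overlap a gene on the other strand, so their reads cannot be told apart from that gene's.

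Lists of vessel, complement and detoxification genes gave between 1 and 3 calls each, of 36, 27 and 36 tested members. Of all tested genes, 0.65% were called positive and 1.73% negative. Tek, the angiopoietin receptor of endothelium, held 35.7, 28.1 and 29.7 CPM in control, 7.35, 11.7 and 11.2 in LL37, 24.1, 32.7 and 31.9 in control+RAPA and 27.9, 23.0 and 26.6 in LL37+RAPA (log2 interaction -1.43, standard error 0.26, adjusted p = 0.0242, edgeR). Vwf, a clotting protein stored by endothelium, was called as well (-1.89), although the median of the 36 endothelial genes was -0.06 and the markers Pecam1 and Cdh5 had their lowest LL37 library at 91.8 and 57.1 CPM, within the control ranges of 82.4 to 119 and 50.3 to 75.5. Pecam1 stood at 148 to 165 CPM in LL37+RAPA, above all other libraries. C4b, a complement component with a near-identical neighbour that may share its reads, held 222, 115 and 250.3 CPM in control, 55.2, 40.9 and 70.2 in LL37, 153, 214 and 147 in control+RAPA and 182, 172 and 163 in LL37+RAPA (log2 interaction -1.83, adjusted p = 0.0317, edgeR). In the list of metallothioneins and NRF2 genes the antioxidant enzyme Hmox1 was positive (1.63) and the glutathione transferases Gsta3 (-1.87) and Gsta4 (-1.32) were negative, with a list median of 0.06.

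In 3 of the named genes the response to LL37 was the larger one with RAPA and upward. Klhl6, an adaptor of a ubiquitin ligase known from B cells and endothelium, held 5.72, 2.92 and 4.69 CPM in control, 4.79, 7.35 and 8.43 in LL37, 2.06, 2.96 and 3.11 in control+RAPA and 16.2, 24.1 and 16.5 in LL37+RAPA. The response was 0.63 without RAPA (adjusted p = 0.1, edgeR) and 2.80 with RAPA (adjusted p = 0.000103, edgeR). Col15a1, a basement membrane collagen, held 89.7, 44.1 and 49.4 CPM in control, 51.9, 64.3 and 64.2 in LL37, 33.8, 35.7 and 40.8 in control+RAPA and 112, 123 and 105 in LL37+RAPA (log2 interaction -1.65, standard error 0.31, adjusted p = 0.0246, edgeR). Col5a3, a fibrillar collagen chain, held 189, 89.7 and 121 CPM in control, 132, 136 and 150.1 in LL37, 94.1, 109 and 107.5 in control+RAPA and 262.5, 263 and 274 in LL37+RAPA (log2 interaction -1.30, standard error 0.29, adjusted p = 0.0374, edgeR). In all 3 the LL37+RAPA libraries were above those of every other group. In the list of Col15a1 and Col5a3, 35 of 46 genes of fibroblasts and matrix were negative (median -0.53) with a median response of 0.36 without RAPA and 1.00 with RAPA. These 2 genes were its only called members, against 1.73% of all tested genes called negative.

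The RNA of mTORC1 components mostly did not pass the test. Mtor held 70.8 to 82.0 CPM in control, 58.5 to 68.1 in LL37, 81.9 to 93.4 in control+RAPA and 62.5 to 70.5 in LL37+RAPA, with a log2 interaction of 0.08 (standard error 0.13, adjusted p = 0.753, edgeR). Rptor, the scaffold of mTORC1, stood at -0.03 (standard error 0.14), and Rps6, a ribosomal protein phosphorylated downstream of it, at 0.08 (standard error 0.14). Eif4ebp1, a translation repressor that mTORC1 phosphorylates, came nearest to a call, with 135, 102 and 124 CPM in control, 147.5, 147 and 115 in LL37, 139, 208 and 164 in control+RAPA and 100.4, 119.7 and 110.5 in LL37+RAPA (log2 interaction 0.81, standard error 0.23, adjusted p = 0.069, edgeR). Of 52 genes of the mTORC1 complex and its regulators 1 was called negative, against 1.73% of all tested genes. This gene, Rragd (-2.19), encodes a GTPase that recruits the complex to lysosomes. It held 79.5, 57.4 and 83.2 CPM in control, 1.03, 1.47 and 3.20 in LL37, 75.7, 59.4 and 61.5 in control+RAPA and 8.02, 6.96 and 8.84 in LL37+RAPA, and was called lower after LL37 both without and with RAPA. The log2 responses of Rragd were -5.23 and -3.05, beside medians of -6.38 and -3.07 in the muscle list. Whether its change follows the muscle share was not tested. The list median was 0.03, and the 79 cytosolic ribosomal proteins had a median of -0.01 with no call. At an unadjusted p under 0.05 they held 1 positive and 0 negative members, against 9.81% and 12.7% of all tested genes. These are RNA levels, and the activity of the kinase was not measured in these libraries.

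The 37 lists together held 32 of the positive and 53 of the negative genes, so most called genes lay outside them. edgeR called no member in 20 lists, and DESeq2 called members in 9 of them. Of those not yet given, DNA replication and mitosis had a median of 0.36 (57 of 60 positive, responses of 1.24 and 0.90), proteasome 0.20 (37 of 38 positive), ATF4 targets 0.39 (31 of 40 positive), the endoplasmic reticulum chaperones 0.16, lysosome and autophagy 0.19, T and NK cells 0.15, dendritic cells -0.03, mitochondrial respiratory chain -0.11, circadian clock -0.37, mast cells -0.59 and Schwann cells -0.83. Red blood cell and B cell genes had few tested members (7 and 5), with medians of -0.24 and -0.21.

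**Figure D2:**
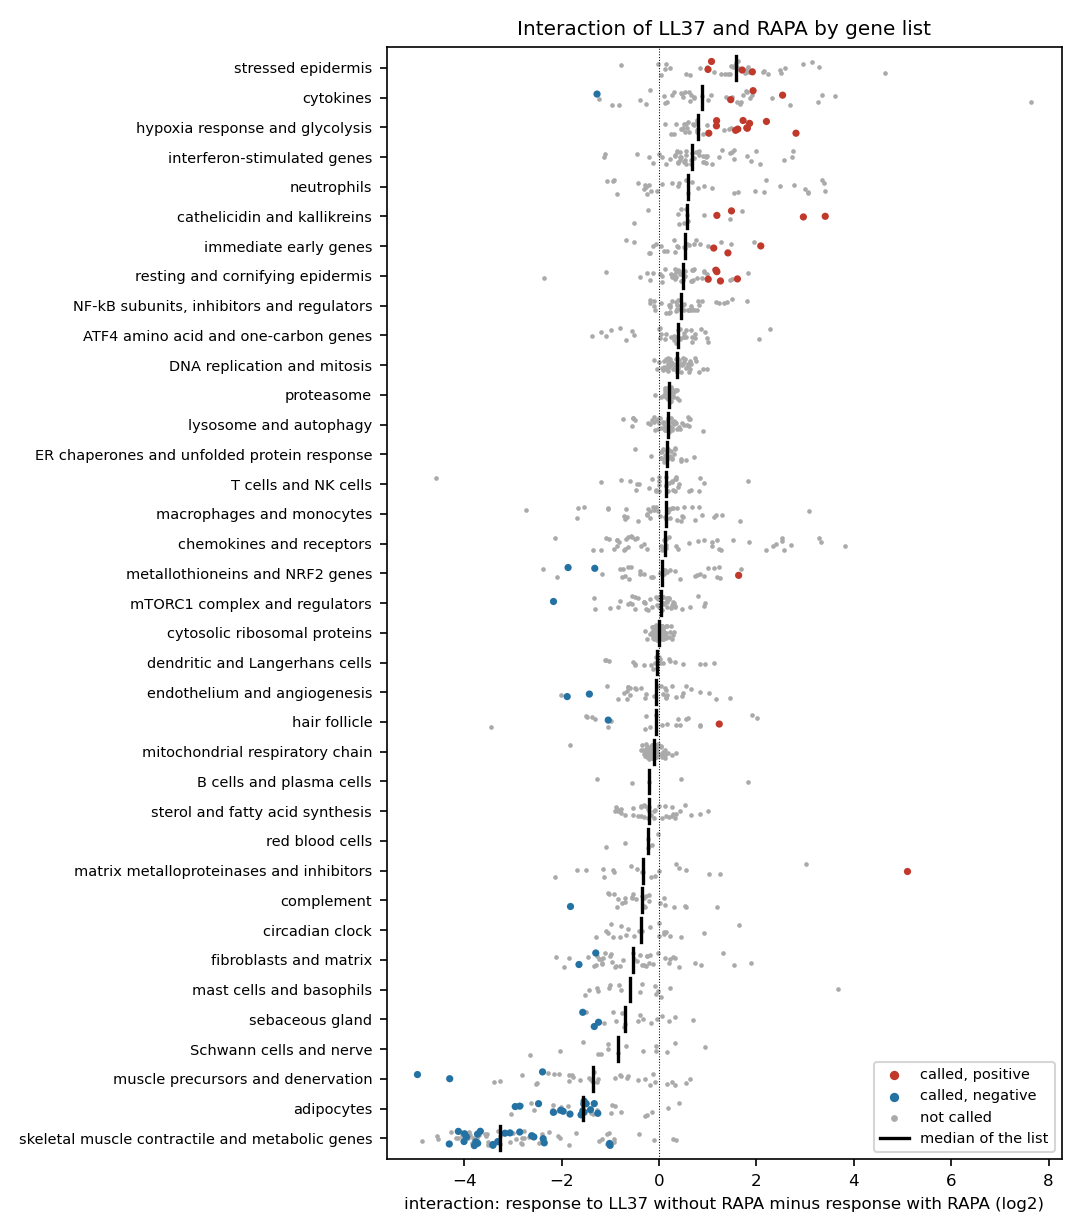
Log2 interaction of each tested member of the 37 gene lists (points), with called genes in red (positive) or blue (negative) and the list median as a black bar, ordered by median from stressed epidermis (1.58) to skeletal muscle (-3.26). Called genes gather in the hypoxia, epidermal, adipocyte and muscle lists.

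**Figure D3:**
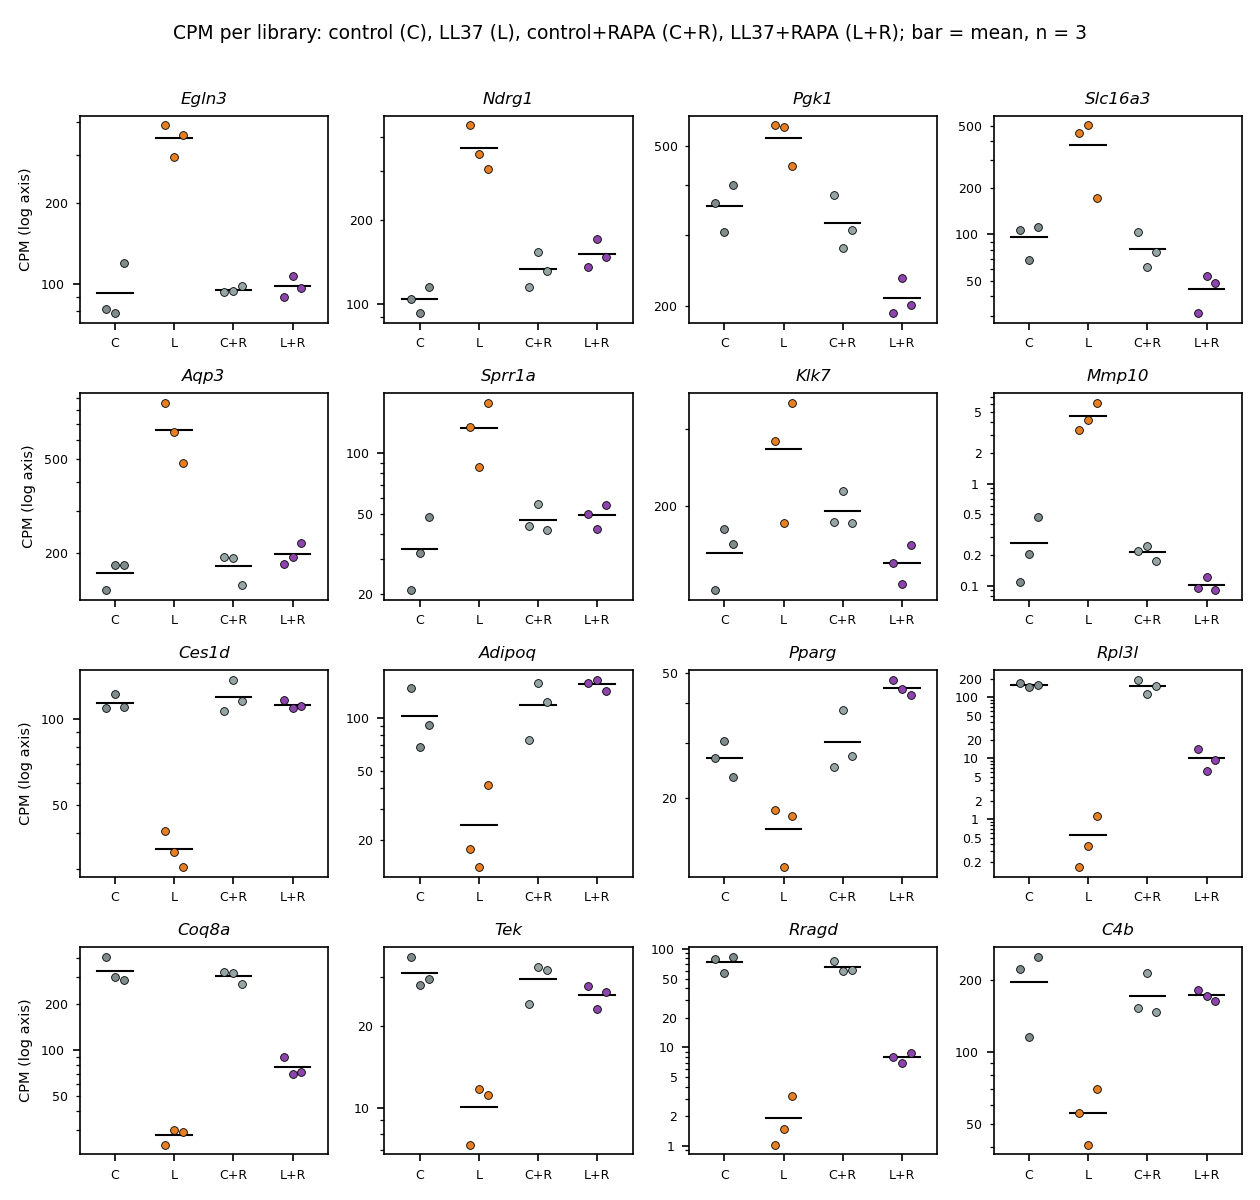
CPM of 16 genes in each library of control (C), LL37 (L), control+RAPA (C+R) and LL37+RAPA (L+R) on log axes, each point 1 library and each bar the mean of 3. In the 8 positive genes (Egln3 to Mmp10) the LL37 mean is the highest of the groups, and in the 8 negative genes (Ces1d to C4b) it is the lowest.

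Each library was left out in turn to see which of these calls rest on it. The number of called genes changed far more than the differences did. Leaving out control replicate 1, 2 or 3 gave 23, 373 and 128 called genes. For the LL37 replicates the counts were 96, 252 and 1760, for the LL37+RAPA replicates 2, 261 and 120, and for the control+RAPA replicates 180, 129 and 17. All 429 genes nevertheless kept their direction and an unadjusted p under 0.05 in each of the 12 fits, and 97 of the 117 positive and 285 of the 312 negative genes kept an absolute log2 difference above 1. Any 2 of these fits share most of their libraries, so that this is no independent repeat. The median adjusted p of the 429 genes moved across the limit. It was 0.0317 with all libraries. It was 0.084 when LL37+RAPA replicate 1 was left out and 0.0026 when LL37 replicate 3 was.

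LL37 replicate 3 was, of its group, the library nearest to the LL37+RAPA mean in 79 of the 117 positive and 248 of the 312 negative genes, and in 52.6% of all tested genes. Its muscle share was 0.341%, against 0.154 and 0.170% in the other LL37 libraries. The groups of genes differed in how far they depended on it. Without it, 68 of the 78 muscle genes were called in place of 22, and the list median moved from -3.26 to -5.31. The adipocyte list went from 16 to 29 calls with a median of -1.89, muscle precursors from 3 to 21, and hypoxia genes from 11 to 16 with a median of 0.92. Without LL37+RAPA replicate 1 the calls were 0 in the muscle and hypoxia lists and 1 in the adipocyte list, while the medians were -2.94, 0.76 and -1.55. Over the 12 fits the list medians stayed between 0.75 and 0.92 for hypoxia genes, 1.00 and 2.87 for stressed epidermis, 0.36 and 0.65 for resting epidermis, -1.89 and -1.40 for adipocytes and -5.31 and -2.78 for muscle. In 8 of these fits no member of the stressed epidermis list was called, and the same held in 8 fits for the resting epidermis list and in 7 for cathelicidin and kallikreins. Without LL37 replicate 3 the stressed epidermis list had 7 positive and 2 negative calls, and the resting epidermis list 4 and 2. Without control+RAPA replicate 1 the resting epidermis list had 0 positive calls and 1 negative call. Klk6 and Klk13 were each called in 2 fits. The list of fibroblasts and matrix went from 2 calls to 18 (3 positive and 15 negative) when LL37 replicate 3 was left out and had none in 6 fits, with medians between -0.75 and -0.25. Cytokines went from 4 calls to 12 and immediate early genes from 3 to 6 without the same library, and each had none in 3 fits.

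By gene, 65 of the 429 were called in at least 9 of the 12 fits, 26 in at least 10, 11 in at least 11 and 2 in all 12. Ces1d and Gm4265 were those 2, and their log2 interactions ranged from -1.72 to -1.51 and from -5.01 to -4.14. Egln3, Kctd11, Ndrg1, Apol6, Lctl, Slc25a23, 5730409E04Rik and Kcnc1 were among those called in 11, missing the limit without LL37+RAPA replicate 1. Ankrd2, Klk7 and Vwf were among those called in 1 of 12. Genes above 9 of 12 in the hypoxia list were Egln3 and Ndrg1, with Ero1l and Vegfa at 9, and in the adipocyte list Ces1d, with Adig and Slc2a4 at 9.

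**Figure D4:**
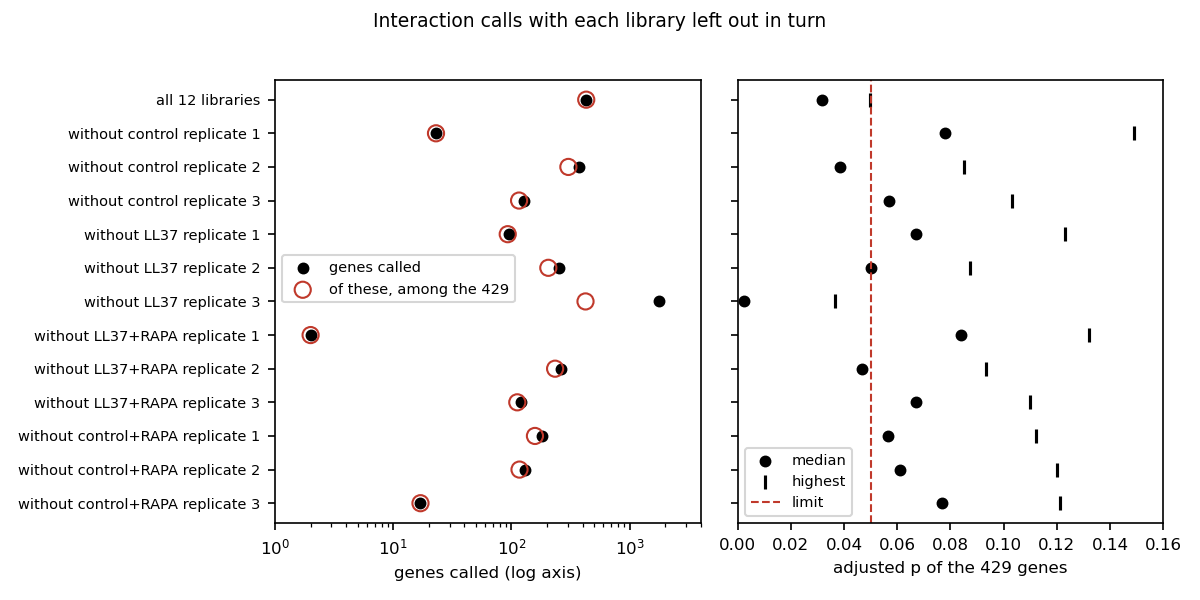
Left, the number of genes called with all 12 libraries and with each library left out (filled points, log axis) and how many of them are among the 429 (red circles); right, the median (points) and highest (ticks) adjusted p of the 429 genes in the same fits, with the limit of 0.05 as a dashed line. The count falls to 2 when LL37+RAPA replicate 1 is left out and rises to 1760 when LL37 replicate 3 is.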

How the data were processed

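RNA was sequenced from whole skin of 12 mice, 3 in each of 4 groups. The authors deposited 1 table of raw read counts per gene (52636 genes), made from paired-end reads of 100 bp. The submitters' processing notes name mm10, HISAT2 2.0.5, StringTie 1.3.3b, featureCounts 1.5.0-p3 and DESeq2 1.16.1, whereas the methods name HTSeq, and which program made the table is not given in the sources used here. Strand was not stated.

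Gene names and positions came from GENCODE M21 (52489 genes with a symbol) and promoter windows from RefSeq (GRCm38.p6). Genes were filtered by edgeR (filterByExpr), scaled by TMM and fitted over all 12 libraries with 1 mean per group, and the interaction was tested by the quasi-likelihood test of edgeR 4.0.16 (R 4.3.3) with Benjamini-Hochberg adjustment over 17993 genes. A call required an adjusted p under 0.05 and an absolute log2 difference above 1. The p-values measure the spread between these 12 samples. Alternatives were other scalings, filters and limits, a replicate block, DESeq2 1.42.0, limma-voom (3.58.1) and each library left out.

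In simulated counts for the interaction (17822 genes, 200 of them changed), edgeR recovered 77 of 100 genes changed by a log2 value of 2 and 94 of 100 changed by 3, with 5 false calls, and DESeq2 recovered 84 and 94 with 26 false calls. Each gene was drawn independently around its group mean, so no simulated library stood apart as LL37 replicate 3 did. These rates therefore need not hold for the real libraries.

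The genes named are the 10 with the smallest p in each direction, up to 2 per list, up to 4 per direction that stayed called most often, up to 3 with the larger response under RAPA, and genes of the pathway and model given whatever they did. Some genes that meet this rule are not reported here. Other called list members were named after their values were seen. The comparison and the 37 gene lists were chosen with earlier results of these data known. The printed promoters were chosen after motif matches were seen.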

Additional observations from a re-analysis of the deposited data

Results flagged for a closer look

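The response to LL37 differed between skin without and with RAPA in 429 genes, by the test of the difference itself (edgeR, adjusted p under 0.05 and absolute log2 difference above 1). The genes below are those named by rule among them, listed with their log2 interactions.

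The response was higher without RAPA in the following 19 genes, whose log2 interactions were Egln3 1.86, Kctd11 1.52, Ndrg1 1.62, Bnc1 1.99, Gm11110 2.97, Cemip 2.52, Ero1l 1.73, Aqp3 1.84, Mmp10 5.10, Ier3 2.09, Il1f9 1.47, Klk9 1.49, Tchh 1.24, Dusp5 1.41, Itga6 1.17, Hrnr 1.26, Sprr1a 1.92, Defb14 1.71 and Klk7 1.19.

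The response was lower without RAPA in the following 27 genes, whose log2 interactions were Ces1d -1.60, Gm4265 -4.52, Apol6 -2.80, 5730409E04Rik -1.10, Lctl -3.60, Slc25a23 -1.23, Kcnc1 -4.68, Coq8a -1.58, Kcnq5 -3.74, Rpl3l -4.12, Adig -1.26, Gsta4 -1.32, Tgfb2 -1.27, Scn4b -3.17, Tek -1.43, Gsta3 -1.87, Rragd -2.19, Klhl6 -2.17, Col15a1 -1.65, Pparg -1.33, C4b -1.83, Scd3 -1.57, Mef2c -2.39, Cd34 -1.04, Col5a3 -1.30, Ankrd2 -4.30 and Vwf -1.89.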

How the results depend on the processing

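The 429 interaction genes (117 positive, 312 negative) became 822 (195 and 627) with a filter of 1 count in total, 1008 (279 and 729) by DESeq2, 2096 (520 and 1576) by limma-voom with quality weights and 945 (252 and 693) at an adjusted p under 0.1. With a replicate block the count was 199 (46 and 153), 188 of them among the 429. Same-numbered samples of different groups correlated from -0.188 to 0.263 and differently numbered ones from -0.303 to 0.277. These values show no pairing by number but cannot exclude it, since each is a deviation from a mean of 3 samples. Without a limit on the log2 difference 203 positive interaction genes were called, and the genes called for LL37 became 7668 without RAPA and 3338 with RAPA. Scaling by library size alone called 484 genes, of which 18.8% were positive against 27.3%, and moved the median of all genes to -0.108. The other settings stayed within 1.5 times of these counts. The causes were not tested.

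With each library left out, the counts ranged from 2 to 1760 (positive 0 to 489, negative 2 to 1271), and the genes called for LL37 from 3006 to 4287 without RAPA and from 1074 to 1705 with RAPA. Without LL37+RAPA replicate 1 edgeR called 0 positive genes.

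Of the named called genes none changed direction in the settings run. With libraries left out 330 of 552 values stayed called, and under the other settings 389 of 406. Among named genes that were not called, scaling by library size alone gave a log2 interaction of Mtor of -0.0131 and a log2 interaction of Rps6 of -0.0182. Leaving out libraries took the log2 interaction of Camp from -0.329 to 1.76 (with -0.196 and -0.0228 below 0) and the log2 interaction of Rptor from -0.125 to 0.0382 (with 0.0309 and 0.00209 above 0). Depth limits the size of the log2 values of Camp, Mmp10, Gm4265, Kcnc1, Lctl, Rpl3l, Kcnq5, Scn4b, Myot and Myoz2, each with libraries near 3 counts.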
